A study of Bos taurus with 6 samples.

Results

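The growth hormone receptor, the kinase and transcription factors below it and 6 inhibitors of the CISH and SOCS family were followed in longissimus thoracis (LT) muscle of Korean cattle steers that differed in the number of fine marbling particles (NFMP). The 10 genes GHR, JAK2, STAT5A, STAT5B, CISH, SOCS1, SOCS2, SOCS3, SOCS5 and SOCS6 were taken by symbol, and all 10 were found among the 22839 symbols of the count files. The list was chosen by the lower CISH count in the high-NFMP group, so the CISH difference is described below without a test, and the question was whether other feedback inhibitors were also lower. The 6 libraries came from Hanwoo (Korean native cattle) steers raised conventionally on commercial feed, with 1 library for each animal and no treatment. The high-NFMP group held steers 3-8, 10-8 and 10-9, aged 32.5, 33.8 and 34.5 months, and the low-NFMP group held steers 3-1, 3-3 and 10-16, aged 37.8, 33.7 and 35.4 months. The groups were selected on the image-analysed marbling and not made by an intervention, and the high-NFMP carcasses were also graded as more marbled, so NFMP and the amount of marbling cannot be told apart. The 3′ libraries held between 16283873 and 17192750 counted reads each. In such libraries reads are meant to gather at the 3′ end of a transcript, so that a count depends little on transcript length. Whether this held for these counts was not checked.

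Growth hormone binds its receptor GHR on the cell surface and activates the attached kinase JAK2, which phosphorylates STAT5A and STAT5B. Phosphorylated STAT5 proteins enter the nucleus and raise transcription of target genes that include IGF1, CISH and SOCS2. CISH and the SOCS proteins close the loop: their SH2 domain binds the phosphorylated receptor or kinase, and their SOCS box recruits elongins and the scaffold CUL5 to mark the bound protein for degradation. SOCS3 is best known as a feedback inhibitor that STAT3 induces downstream of the interleukin-6 family of cytokines, and SOCS1 as one that interferons induce. Skeletal muscle and adipocytes both carry GHR, and growth hormone is known to oppose fat storage.

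Among the inhibitors other than CISH, SOCS3 was down-regulated in the high-NFMP group at the unadjusted threshold of the study, whereas SOCS1, SOCS5 and SOCS6 did not pass the p and fold change threshold and SOCS2 was counted too rarely to be tested. The receptor GHR and the factors STAT5A and STAT5B had nearly equal means in both groups, and the kinase JAK2 was lower by less than the fold change limit. With the threshold of the study's methods, an unadjusted p below 0.05 together with a change of more than 2-fold, 1 of the 8 tested genes other than CISH was called (SOCS3, lower). Of the 15039 genes tested by edgeR's quasi-likelihood test, 3.9% were called in either direction and 1.36% were called lower. An unadjusted p below 0.05 with a lower level, at any fold change, was found for 3 of the 8 (SOCS3, JAK2 and SOCS5), against 5.74% of all tested genes. After Benjamini-Hochberg adjustment 103 of all tested genes, but none of the 8, stayed below 0.05. That number was 33, 41, 28 and 63 without steers 3-8, 10-8, 3-3 and 10-16, 31 with age as a term, 69 with library totals alone, 240 without the filter and 291 with DESeq2. It was 0 after quantile normalization with limma, where 1625 genes had an unadjusted p below 0.05. The median log2 fold change (high minus low) of the 8 genes was -0.026, and that of all tested genes was 0.018.

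**Figure D1:**
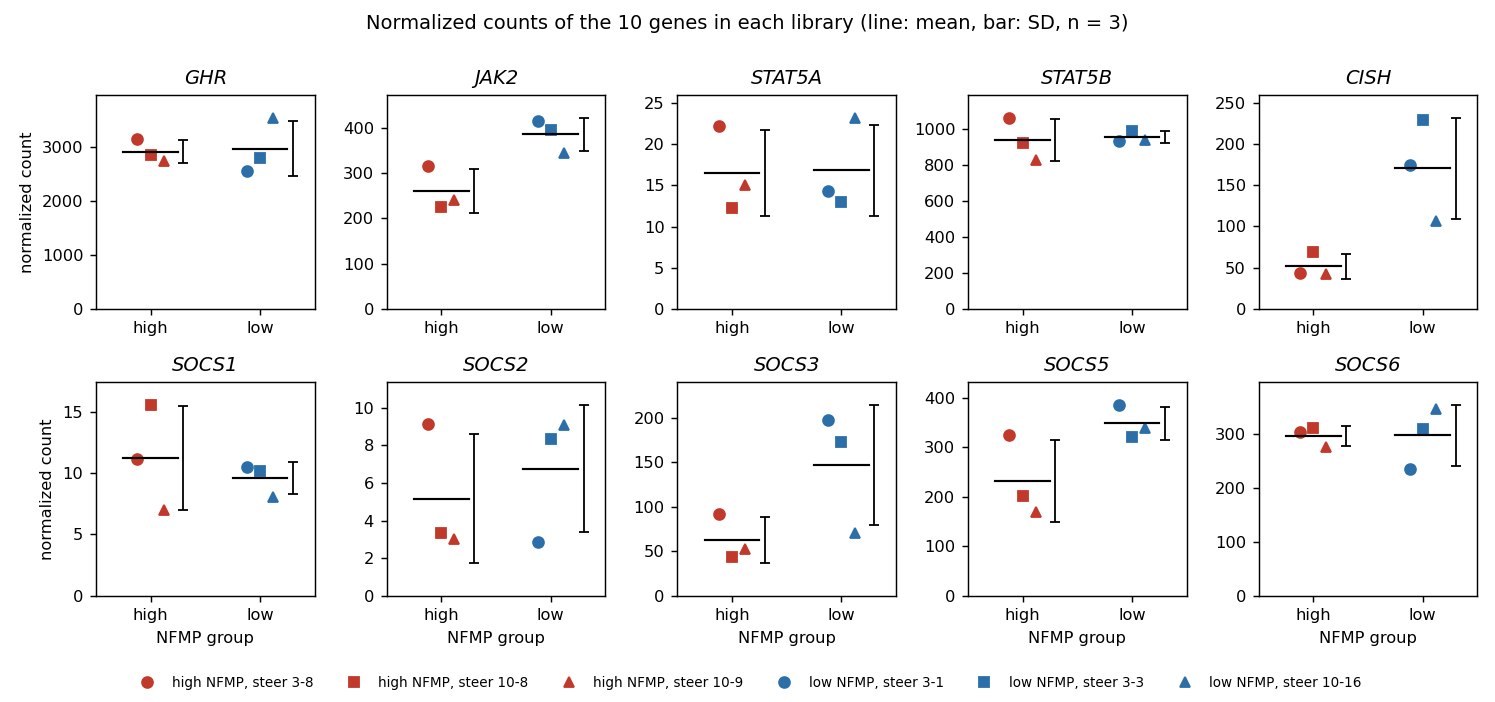
Normalized counts (y axis, from 0, reads rescaled to a common effective library size) of the 10 genes in the 3 high-NFMP (red) and 3 low-NFMP (blue) steers, with the mean (line) and SD (bar). CISH lies between 42.1 and 68.9 in the high-NFMP steers and between 107.0 and 229.5 in the low-NFMP steers, whereas GHR, STAT5B and SOCS6 overlap between the groups.

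CISH is the gene on which the list was built. Its normalized counts (reads rescaled so that all libraries share 1 effective size) were 43.6, 68.9 and 42.1 in the high-NFMP steers 3-8, 10-8 and 10-9. In the low-NFMP steers 3-1, 3-3 and 10-16 they were 175.1, 229.5 and 107.0. All 3 high-NFMP steers lay below all 3 low-NFMP steers, and the low-NFMP steers differed among themselves by more than the high-NFMP steers did. The means were 51.5 ± 15.1 (SD, n = 3) and 170.5 ± 61.4 (SD, n = 3), with a fitted log2 fold change of -1.73 (standard error 0.33), which corresponds to a level 3.32-fold higher in the low-NFMP group. The low-NFMP group held the 2 oldest steers, and with age as a term in the fit the log2 fold change of CISH was -1.84 (standard error 0.39). The part of age in the difference was not tested further. With 1 steer left out at a time, the log2 fold change of CISH stayed between -1.96 (without steer 10-8) and -1.46 (without steer 3-3).

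The labels do not say what the first number of a steer label stands for, but both groups held steers of the 3 and the 10 series, so the values were also read within each. Among the steers labelled 3, CISH was at 43.6 in the high-NFMP steer and at a mean of 202.3 in the 2 low-NFMP steers, a log2 difference of -2.21. Among the steers labelled 10, it was at a mean of 55.5 in the 2 high-NFMP steers and at 107.0 in the low-NFMP steer, a log2 difference of -0.95. Since CISH was chosen with its groups apart, its direction within each series was given by that choice. With so few steers in each, the 2 differences could not be compared by a test.

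SOCS3 was the one other inhibitor past the threshold. Its normalized counts were 92.2, 43.3 and 52.2 in the high-NFMP steers 3-8, 10-8 and 10-9, against 197.1, 173.0 and 70.7 in the low-NFMP steers 3-1, 3-3 and 10-16. The groups overlapped, since the high-NFMP steer 3-8 lay above the low-NFMP steer 10-16. The means were 62.6 ± 26.1 (SD, n = 3) and 146.9 ± 67.1 (SD, n = 3). The log2 fold change was -1.23 (standard error 0.39, unadjusted p = 0.00785, adjusted p = 0.238 by edgeR), and its 95% interval ran from -2.08 to -0.38.

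SOCS3 counts also ran with the first label number. Both low-NFMP steers labelled 3 had more than 170 normalized counts, and the low-NFMP steer labelled 10 had 70.7. Within the steers labelled 3 the high-NFMP steer had 92.2 against a mean of 185.1, a log2 difference of -1.01. Within the steers labelled 10 the high-NFMP mean was 47.7 against 70.7, a log2 difference of -0.57. In both series the groups were apart in the same direction. Of all tested genes, 35.2% were apart in this direction among the steers labelled 3, 34.7% among the steers labelled 10 and 14.7% in both. JAK2 too was apart in both series, with log2 differences of -0.36 and -0.57. The steers labelled 10 alone were apart, with both high-NFMP steers lower, for GHR, STAT5A, STAT5B, SOCS5 and SOCS6, which rests on the single low-NFMP steer 10-16, and for SOCS5 the log2 difference was -0.12 among the steers labelled 3 and -0.87 among those labelled 10. With the label number as a term in the fit, the log2 fold change of SOCS3 was -0.79 (standard error 0.28, unadjusted p = 0.0147 by edgeR), which is below the fold change limit, and without steer 3-1 it was -0.96, also below that limit.

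SOCS5, which is known for damping the interleukin-4 and epidermal growth factor receptors, was lower by a smaller amount. It had 325.3, 202.3 and 168.5 normalized counts in the high-NFMP steers 3-8, 10-8 and 10-9, against 385.6, 320.2 and 339.2 in the low-NFMP steers 3-1, 3-3 and 10-16. Steer 3-8 lay among the low-NFMP steers, and the other two high-NFMP steers lay below all of them. The log2 fold change was -0.59 (standard error 0.25, unadjusted p = 0.0317, adjusted p = 0.38 by edgeR), with a 95% interval from -1.11 to -0.06. Its unadjusted p was below 0.05 in 2 of the 6 fits that left 1 steer out, namely without steer 3-8 (log2 fold change -0.91) and without steer 3-3 (-0.65), and the estimate was -0.39 without steer 10-9. The unadjusted p was 0.051 with the label number and 0.0657 with age as a term (edgeR), and 0.0547 after quantile normalization (limma).

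SOCS6, which binds the stem cell factor and insulin receptors, had nearly the same mean in both groups. Its normalized counts were 305.0, 311.2 and 276.8 in steers 3-8, 10-8 and 10-9 (high NFMP) and 236.4, 310.9 and 347.3 in steers 3-1, 3-3 and 10-16 (low NFMP). The high-NFMP values fell inside the range of the low-NFMP values. The log2 fold change was -0.0025 with a standard error of 0.21, and the 95% interval allowed a level between 0.732 and 1.36 times that of the low-NFMP group.

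SOCS1, the feedback inhibitor of interferon signalling, had 11, 14 and 7 reads in steers 3-8, 10-8 and 10-9 of the high-NFMP group and 11, 11 and 8 reads in steers 3-1, 3-3 and 10-16 of the low-NFMP group. The groups overlapped, with 32 and 30 reads in all. Its log2 fold change was 0.22 (standard error 0.57, unadjusted p = 0.708 by edgeR), and the 95% interval ran from 0.500 to 2.70 times the low-NFMP level. With so few reads the interval reached from a decrease of nearly 2-fold to an increase of more than 2-fold. No molecular identifiers are named for these libraries, so reads are not independent molecules. SOCS2, the STAT5 target that limits growth in the growth hormone pathway, had 9, 3 and 3 reads against 3, 9 and 9 and was removed by the filter on low counts. Without the filter its log2 fold change was -0.41 with a standard error of 0.88 (unadjusted p = 0.643 by edgeR). SOCS2, which like CISH is a growth hormone target, therefore gave no usable comparison in these libraries.

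**Figure D2:**
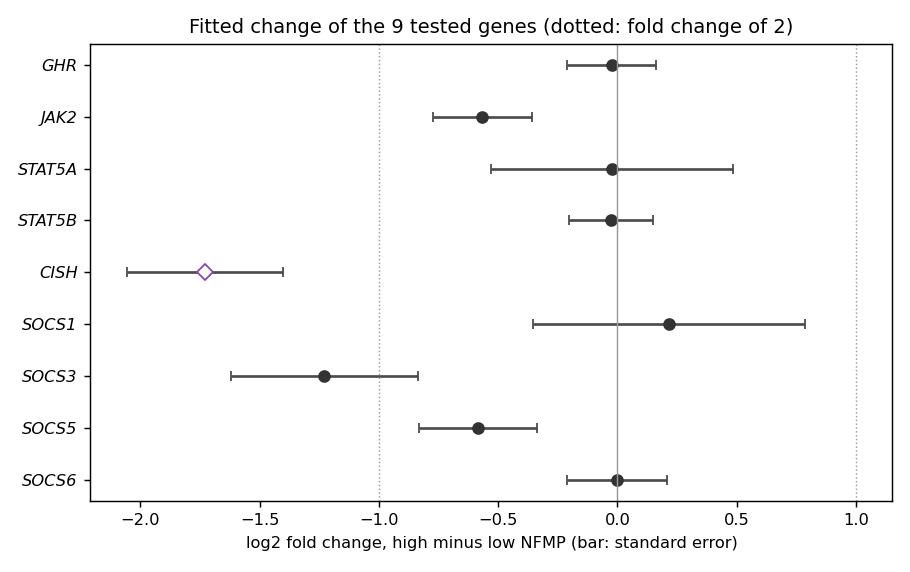
Fitted log2 fold change, high minus low NFMP (x axis), of the 9 tested genes with its standard error (bars); CISH is drawn as an open diamond because it was chosen for this difference. SOCS3 is at -1.23 and JAK2 and SOCS5 are near -0.6, whereas GHR, STAT5A, STAT5B and SOCS6 lie within 0.03 of 0.

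Upstream of the inhibitors, GHR was counted deeply and had nearly equal means. Its normalized counts were 3161, 2864 and 2739 in the high-NFMP steers 3-8, 10-8 and 10-9, against 2561, 2809 and 3547 in the low-NFMP steers 3-1, 3-3 and 10-16. The lowest and the highest values both belonged to low-NFMP steers. The log2 fold change was -0.025 (standard error 0.19, unadjusted p = 0.895 by edgeR), with a 95% interval from 0.746 to 1.29 times the low-NFMP level. In the RefSeq gene table of the assembly ARS-UCD2.0 the long noncoding RNA gene LOC112443004 overlaps GHR. It averaged 4434 ± 1122 (SD, n = 3) normalized counts at high NFMP and 3402 ± 632 (SD, n = 3) at low NFMP, with a log2 fold change of 0.38 (unadjusted p = 0.0995 by edgeR). The sources used here do not say whether strand entered the counting, so reads of the 2 genes may not have been kept apart. The same holds for SOCS2, which the long noncoding RNA gene LOC132345250 overlaps, and for SOCS3, which LOC132342979 adjoins at a distance of 74 bases in that assembly. Neither of these neighbours was among the tested genes.

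JAK2, the kinase that carries the signal from GHR and from several other cytokine receptors, had its 3 lowest values in the high-NFMP steers. Its normalized counts were 316.2, 224.5 and 241.7 in the high-NFMP steers 3-8, 10-8 and 10-9, against 417.2, 396.1 and 346.3 in the low-NFMP steers 3-1, 3-3 and 10-16. It was the only one of the 8 tested genes other than CISH whose groups did not overlap with the high-NFMP group lower, and 9.16% of all tested genes were separated in this way. The log2 fold change was -0.57 (standard error 0.21, unadjusted p = 0.0155, adjusted p = 0.3 by edgeR), a level 1.48-fold higher in the low-NFMP group. With 1 steer left out, the estimate stayed between -0.73 and -0.44, and the unadjusted p rose to 0.0686 without steer 10-8 and to 0.0583 without steer 3-1.

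STAT5B, by far the more counted of the 2 STAT5 genes, had 1059, 921.2 and 825.4 normalized counts in steers 3-8, 10-8 and 10-9, against 933.0, 989.2 and 936.9 in steers 3-1, 3-3 and 10-16. All 3 low-NFMP values lay inside the range of the high-NFMP values. Its log2 fold change was -0.027 (standard error 0.18, unadjusted p = 0.88 by edgeR), and the 95% interval ran from 0.755 to 1.28 times the low-NFMP level. STAT5A had 22, 11 and 15 reads against 15, 14 and 23, and its interval was wide, from 0.465 to 2.09 times the low-NFMP level. STAT5A and STAT5B are similar in sequence, and the methods name counts from unique and multiple alignments, so the division of reads between the pair is uncertain.

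The variation between steers of a group, beyond counting error, was not the same for all of the genes. The biological coefficient of variation was 17.3% for STAT5B, 18.1% for GHR, 19.1% for JAK2 and 19.3% for SOCS6, against 25.1% as the common value over all genes. It was 27.3% for CISH and 32.8% for SOCS3. SOCS5 was at 22.15%, and the rarely counted STAT5A and SOCS1 were at 35.5% and 35.7%. CISH and SOCS3 thus had the highest values of the well-counted genes, but also the fewest counts among them. The part of the count level in these values was not tested.

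**Figure D3:**
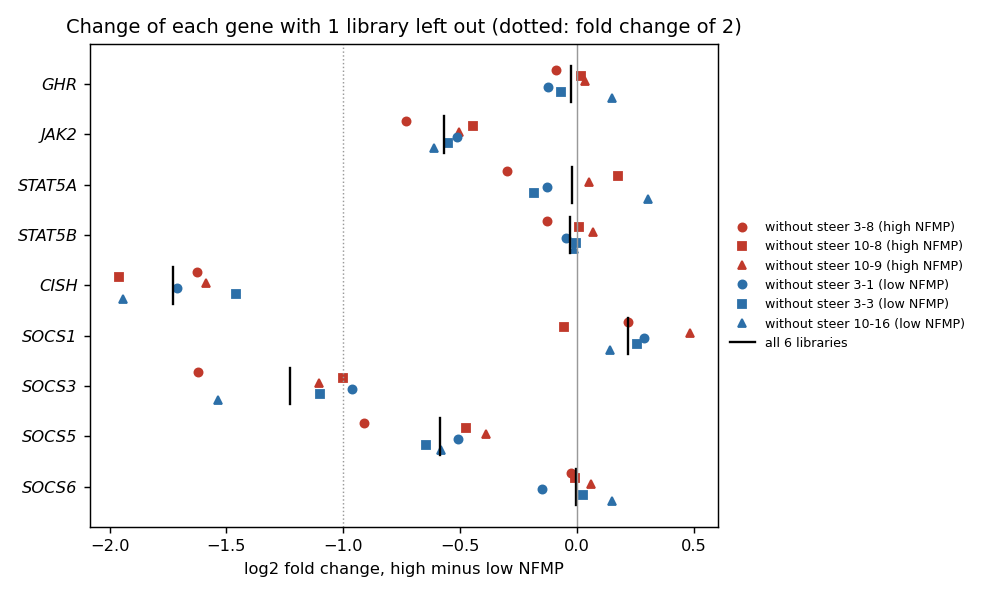
Log2 fold change, high minus low NFMP (x axis), of each tested gene with 1 of the 6 steers left out (coloured symbols, red for a high-NFMP and blue for a low-NFMP steer) and with all steers (black line). CISH stays between -1.96 and -1.46 and SOCS3 between -1.62 and -0.96, and JAK2 and SOCS5 keep values below 0, whereas GHR, STAT5A, STAT5B, SOCS1 and SOCS6 cross 0.

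Because a ratio of 2 genes within a library does not depend on how libraries are scaled, CISH was also expressed per 100 counts of other genes. Per 100 counts of SOCS6 there were 14.3, 22.1 and 15.2 counts of CISH in the high-NFMP steers 3-8, 10-8 and 10-9, against 74.1, 73.8 and 30.8 in the low-NFMP steers 3-1, 3-3 and 10-16. The groups were also apart per 100 counts of STAT5B (4.12 to 7.48 against 11.4 to 23.2) and of GHR (1.38 to 2.41 against 3.02 to 8.17). Per 100 counts of SOCS3 there were 47.3, 159.0 and 80.8 counts of CISH at high NFMP and 88.8, 132.6 and 151.4 at low NFMP. These ratios overlapped. Per 100 counts of SOCS5 the ranges met as well, at 13.4 to 34.1 against 31.6 to 71.7, and per 100 counts of JAK2 the groups were apart by a narrow margin, 30.7 against 30.9 at the nearest. These ratios carry the CISH difference that chose the list and are given as a description.

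**Figure D4:**
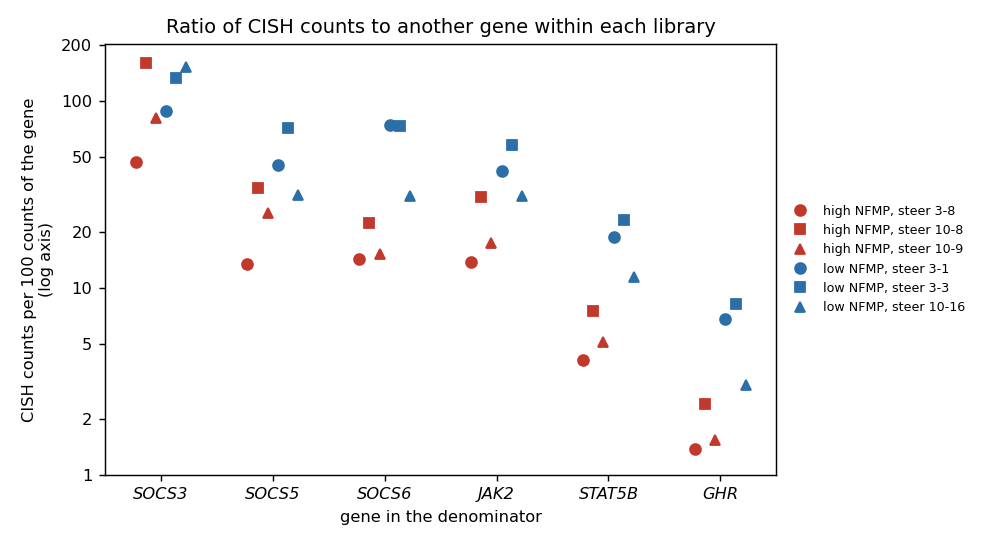
Counts of CISH per 100 counts of another gene within each library (y axis, log scale) for 6 denominator genes (x axis), with high-NFMP steers in red and low-NFMP steers in blue. The groups are apart for SOCS6, STAT5B and GHR, nearly touch for JAK2 (30.7 and 30.9) and overlap for SOCS3 and SOCS5.

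Beyond the CISH and SOCS genes listed, 11 other inhibitors of JAK-STAT signalling were examined (SOCS4, SOCS7, PIAS1, PIAS2, PIAS3, PIAS4, PTPN1, PTPN2, PTPN6, SH2B3 and CBL), which act as ligase adaptors, as inhibitors of STAT DNA binding, as phosphatases or as adaptors. None was past the p and fold change threshold. PTPN1, a phosphatase that acts on JAK2 and on the insulin receptor, averaged 690.9 ± 97.9 (SD, n = 3) normalized counts at high NFMP and 1051 ± 48.0 (SD, n = 3) at low NFMP. The log2 ratio of high to low was -0.60 (standard error 0.18, unadjusted p = 0.00458, adjusted p = 0.189 by edgeR). SOCS7 and PIAS1, named after their values were seen because their unadjusted p was below 0.05, had log2 fold changes of -0.55 and -0.59. SOCS7, like PTPN1, had groups that did not overlap, and 9.16% of all tested genes were apart in this direction. PTPN2, another phosphatase of the JAK kinases and the second most counted gene of the list, was at -0.14 (unadjusted p = 0.462 by edgeR).

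Counted together, the inhibitors other than CISH came to 16 genes, of which 15 were tested. An unadjusted p below 0.05 with a lower level was found for 5 of the 15 (SOCS3, SOCS5, PTPN1, PIAS1 and SOCS7), against 5.74% of all tested genes. None of the 15 had such a p with a higher level, against 5.73% of all tested genes. The estimate was negative for 12 of the 15, and their median log2 fold change was -0.31, compared with 0.018 over all tested genes. Of these 15 only SOCS3 exceeded a fold change of 2. The count of 5 was 3 after quantile normalization with limma, 4 with the label number and 3 with age as a term, and it lay between 3 and 6 with 1 steer left out. With the label number as a term, and without steer 10-8, 10-9 or 3-1, 1 gene of the 15 had a p below 0.05 with a higher level. The median lay between -0.44 (without steer 3-1) and -0.17 (without steer 10-16). The lists were drawn up with the CISH result known, and no test was made over them.

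Of 7 other kinases and transcription factors of the pathway that were examined, none was past the threshold, and their median log2 fold change was 0.04. STAT3, the factor downstream of the interleukin-6 family that induces SOCS3, was lower in every high-NFMP steer, as were 9.16% of all tested genes. It had 364.8, 297.8 and 280.8 normalized counts in the high-NFMP steers 3-8, 10-8 and 10-9, against 616.2, 554.3 and 510.8 in the low-NFMP steers 3-1, 3-3 and 10-16. Its log2 fold change was -0.83 (standard error 0.19, unadjusted p = 0.000665, adjusted p = 0.073 by edgeR), within the fold change limit. STAT3 adjoins STAT5A in ARS-UCD2.0, and STAT5A, though counted rarely, was at -0.021. JAK1, the most counted kinase, was at 1594 ± 138 (SD, n = 3) against 1558 ± 160 (SD, n = 3) normalized counts.

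Of 20 other cytokine receptors that signal through JAK kinases, 16 were tested, 2 were called higher and none was called lower, where 2.53% of all tested genes were called higher and 1.36% lower. The called genes were LEPR, the leptin receptor, at 2.05 on the log2 scale (standard error 0.62), and IL2RG, the common gamma chain of lymphocyte cytokine receptors, at 1.08 (standard error 0.48). LEPR was already among the genes the study had picked from these libraries, and with 27, 23 and 29 reads against 3, 3 and 14 it passed the filter on low counts through the group where it was higher, so the count of 2 is no support for the list. Both were counted rarely, with 27.3 and 28.8 normalized counts in the high-NFMP group and 6.59 and 13.5 in the low-NFMP group. IL2RG was not called when steer 10-8, 3-1, 3-3 or 10-16 was left out, with a log2 fold change of 0.78 without steer 10-8, nor with library totals alone, after quantile normalization or with the label number or age as a term. LEPR was at 3.25 without steer 10-16. The receptors IL6R and IL11RA, with the most counts of the list, were at -0.15 and 0.27. LIFR, the receptor of leukaemia inhibitory factor, was named after its values were seen. It had lower counts without overlap in the high-NFMP steers, as did 9.16% of all tested genes. Its log2 fold change of -0.55 had a standard error of 0.21 (unadjusted p = 0.0173, adjusted p = 0.315 by edgeR).

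The SOCS box ligase subunits were examined because CISH and the SOCS proteins act through them. None of the 6 genes was past the threshold, and their log2 fold changes lay between -0.43 and 0.18. CUL5, the scaffold of that ligase, had 1885 ± 278 (SD, n = 3) against 2531 ± 239 (SD, n = 3) normalized counts. The change was -0.43 on the log2 scale (standard error 0.18, unadjusted p = 0.0358, adjusted p = 0.403 by edgeR). ARIH2, the ubiquitin ligase that works with CUL5, was at -0.12.

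Of 9 tested STAT5-responsive genes none was past the threshold, and their median log2 fold change was -0.14, with 6 estimates negative and 3 positive. BCL6 and MCL1, with the most counts, were at -0.0035 and -0.31. IGF1, the growth factor that growth hormone induces through STAT5 and named after its values were seen, had a positive log2 fold change. It had 294.9, 240.0 and 188.5 normalized counts in the high-NFMP steers 3-8, 10-8 and 10-9, against 156.9, 192.5 and 118.1 in the low-NFMP steers 3-1, 3-3 and 10-16. The groups overlapped slightly, and the log2 fold change was 0.63 (standard error 0.25, unadjusted p = 0.0261, adjusted p = 0.357 by edgeR).

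Of 7 tested STAT3-responsive genes, 1 was called higher (2.53% of all tested genes were), the haptoglobin gene HP, with 54.7, 25.6 and 125.4 normalized counts in steers 3-8, 10-8 and 10-9, against 14.4, 44.4 and 9.09 in steers 3-1, 3-3 and 10-16. Its groups overlapped, and its log2 fold change was 1.59 with all steers. It was not called when steer 3-8, 10-9, 3-1 or 10-16 was left out, and its log2 fold change was 0.83 without steer 10-9 and 2.53 without steer 3-3. Its call was also lost with library totals alone, after quantile normalization and with the label number or age as a term. The median log2 fold change of the 7 genes was 0.40, with 6 estimates positive, and the most counted genes, CEBPD and JUNB, were at 0.071 and -0.056. In all, 3 of the 56 tested genes of the 6 pathway lists were called, each of them higher in the high-NFMP group, against 3.9% of all tested genes called in either direction and 2.53% called higher. The 3 include LEPR, which the study had already picked and which passed the filter through the group where it was higher. The count of 3 is therefore no support for the lists.

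**Figure D5:**
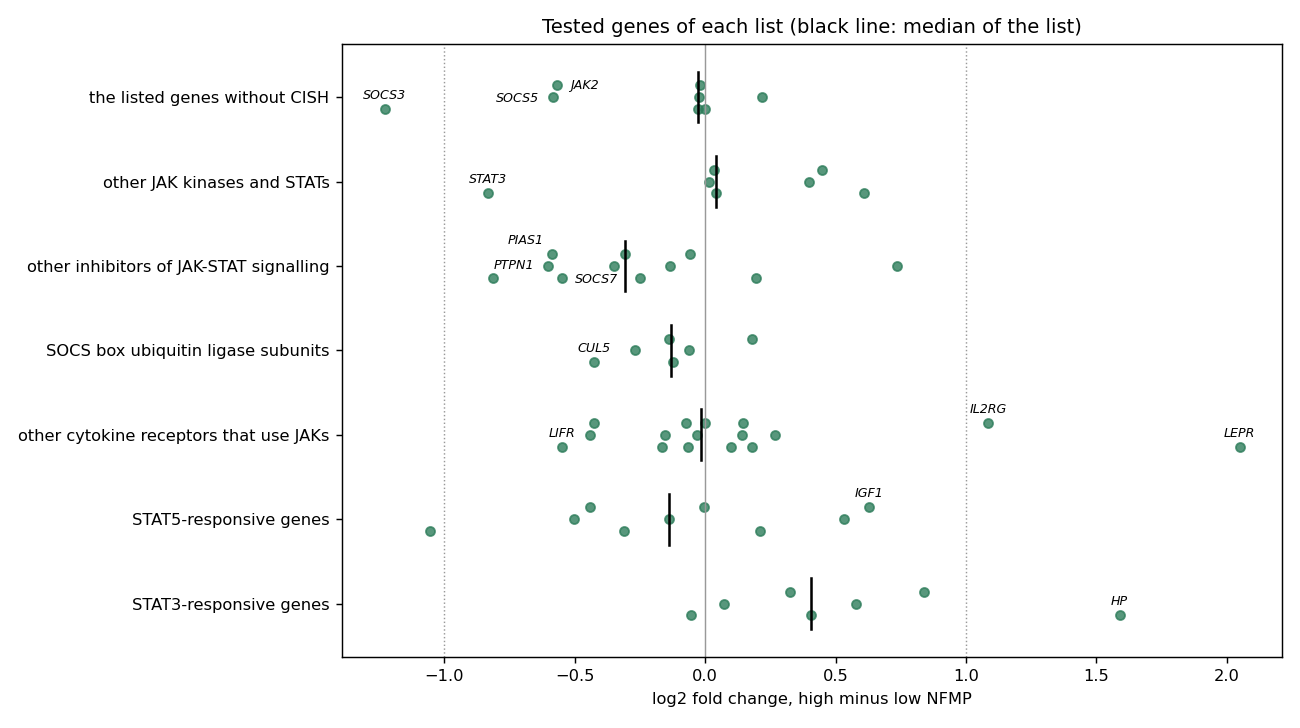
Log2 fold change, high minus low NFMP (x axis), of every tested gene (points) of the listed genes without CISH and of 6 pathway lists, with the median of each list (black line) and a fold change of 2 (dotted lines). The other inhibitors have a median of -0.31, and the 3 called genes of the pathway lists (LEPR, IL2RG and HP) lie to the right of a fold change of 2. SOCS3, also called, lies to the left, and the 1 pathway list gene to the left of that limit did not pass the p threshold.

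The 5 tested genes whose log2 CPM values (reads scaled by library size, on a log scale) ran most closely with those of CISH over the 6 libraries included MCFD2, SPRED1, PRKD3 and CUL2, with Pearson's r of 0.991, 0.988, 0.987 and 0.982. These 4 were lower in the high-NFMP group, but by less than CISH, with log2 fold changes between -0.88 (CUL2) and -0.34 (PRKD3). CUL2, for example, had 138.8, 143.4 and 128.4 normalized counts in the high-NFMP steers 3-8, 10-8 and 10-9, against 256.4, 307.2 and 193.8 in the low-NFMP steers 3-1, 3-3 and 10-16, with the low-NFMP steers in the same order as for CISH. Among the listed genes the r with CISH was 0.781 for JAK2, 0.766 for SOCS3 and 0.628 for SOCS5, and 795, 886 and 1907 was their place in the order of all tested genes. It was 0.20 for STAT5B, 0.072 for SOCS1, -0.13 for SOCS6, -0.23 for GHR and -0.33 for STAT5A. After the group means were removed, r was 0.00057 for JAK2, 0.39 for SOCS3 and -0.14 for SOCS5, whereas it was 0.71 for SOCS1, 0.15 for STAT5B, -0.22 for SOCS6, -0.64 for GHR and -0.86 for STAT5A. The values of SOCS1 and STAT5A rest on few reads, 7 to 14 and 11 to 23 in a library. The 6 points share the group difference, and no test was made.

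Whole muscle was sequenced, so fewer cells of a type and less RNA per cell cannot be told apart. The muscle fibre markers (8 of 8 tested) were abundant in every library, with summed normalized counts between 1577720 and 2051960, and none of them was called. Of 6 adipocyte markers none was called, but 2 had an unadjusted p below 0.05 and were higher in the high-NFMP group (5.73% of all tested genes were), ADIPOQ (adiponectin) at a log2 fold change of 0.63 and CIDEC (a lipid droplet protein) at 0.89. The most counted of the 6, the fatty acid carrier gene FABP4, was at 0.61 (unadjusted p = 0.354 by edgeR). The 6 adipocyte markers had a median log2 fold change of 0.62, with all 6 estimates positive. Their sum lay between 3284 and 9179 in the high-NFMP steers and between 3053 and 4316 in the low-NFMP steers, and the value of 9179 belonged to steer 3-8. Steer 3-8, the youngest steer and the only high-NFMP steer labelled 3, had the most normalized counts of that group for JAK2, SOCS3 and SOCS5. The same held for GHR, STAT5A, STAT5B and SOCS2, but not for CISH, SOCS1 or SOCS6. Without steer 3-8 the log2 fold changes of JAK2, SOCS3 and SOCS5 were -0.73, -1.62 and -0.91, larger in size than with all steers. Leaving out the highest high-NFMP value lowers the mean of that group in any case. GHR, STAT5A and STAT5B moved down too, to -0.088, -0.30 and -0.13. The sums of the lymphocyte and macrophage markers overlapped (459.0 to 639.4 against 384.6 to 672.7, with 5 of 10 genes tested and CD3E, CD3D, CD4, CD8A and MS4A1 below the filter). So did those of the endothelial markers (933.5 to 1429 against 956.1 to 1246), and none of either list was called. The 5 tested lymphocyte and macrophage markers had log2 fold changes between -0.56 and 0.73, with a median of 0.27 and 3 positive. The fibroblast and preadipocyte markers (none called) ranged from 12004 to 14998 against 9463 to 12228, and the median log2 fold change of the 6 genes was 0.27, with 5 estimates positive. PDGFRA, at -0.51 (unadjusted p = 0.0391 by edgeR), was the exception. CIDEC and PDGFRA were picked for their p values, once these were known. The part of these cell types in the differences of CISH and SOCS3 was not tested.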

How the data were processed

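RNA of LT muscle from 3 high-NFMP and 3 low-NFMP steers, grouped by sample label, was sequenced as 3′ mRNA libraries. The authors deposited a raw count of reads for each gene symbol. Their methods name Tophat2 with HTSeq and, elsewhere, Bowtie2 with unique and multiple alignments, and the submitters' processing notes name Bowtie2 and bedtools. The sources used here do not say which of these made the counts. Analysis was made with edgeR 4.0.16 (R 4.3.3): default filter (minimum count 10, minimum total 15; 15039 of 23015 rows kept), TMM factors, robust dispersions and the quasi-likelihood test, with Benjamini-Hochberg adjustment over all tested genes. Standard errors came from the log2 fold change and its F statistic. An exact permutation test of 3 against 3 cannot give a p below 0.1. Alternatives were RLE factors, library totals alone, quantile normalization of log2(count + 1) with limma 3.58.1, DESeq2 1.42.0, 2 other filters, a term for the first label number or for age, and the omission of each steer in turn. The procedures were tested on simulated data. The genes and lists were chosen with earlier results of these data known. Named are the 10 genes, list genes past the threshold, up to 2 genes per list with the most counts, 4 of the 5 genes most like CISH and, as stated, genes picked after their values were seen. Gene neighbours came from the RefSeq table of ARS-UCD2.0, in which all 10 symbols were found. The authors aligned to another assembly, so no coordinates are printed, and the overlap and adjacency of genes hold for ARS-UCD2.0. Some genes of the pathway and 1 gene most like CISH are not reported here.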

Additional observations from a re-analysis of the deposited data

How the results depend on the processing

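The number of genes past the p and fold change threshold was 586, but 969 without a filter and 364 with at least 10 counts in every library, and for genes lower in the high-NFMP group it was 205, 342 and 117. With 1 steer left out, the latter number lay between 174 and 378, the highest without steer 3-8. Apart from CISH, 1 of the listed genes was called (SOCS3), and 0 with the first label number as a term. With 1 steer left out the number was between 0 and 1, being 0 without steer 3-1. Of the pathway genes, 3 were called, but 1 with library totals alone, 1 after quantile normalization, 1 with at least 10 counts in every library, and between 1 and 3 with 1 steer left out (1 without steer 10-16). The log2 fold changes of JAK2, SOCS3 and SOCS5 kept their sign under all 14 alternatives. Those near 0 changed sign: GHR was at 0.023 and SOCS6 at 0.027 after quantile normalization, SOCS6 at 0.0039 with at least 10 counts in every library, and STAT5B at 0.019 with the label number as a term. With 1 steer left out, GHR lay between -0.12 and 0.15, STAT5A between -0.30 and 0.30, STAT5B between -0.13 and 0.068, SOCS1 between -0.054 and 0.48, and SOCS6 between -0.15 and 0.15. The cause of these shifts was not tested. SOCS1 and SOCS2 had few reads, and the effect of depth on them was not tested.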
